A study of Macaca mulatta with 9 samples.

Results

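The 10 genes described here encode enzymes that make or use nicotinamide adenine dinucleotide (NAD): NAMPT, NMNAT1, NMNAT3, NAPRT, NADSYN1, NADK, CD38, BST1, PARP1 and SARM1. They were chosen by name, with earlier results of these data known, and 10 of 10 have a row among the 24371 genes of the deposited table. The whole-blood RNA of 9 rhesus macaques, Macaca mulatta, was sequenced, all labelled wild type and 3 in each of 3 groups. The ABPC_EV animals were injected with extracellular vesicles (EV) of antler blastema progenitor cells. The FBMSC_EV animals received EV that the labels name FBMSC, and the PBS animals received the phosphate-buffered saline vehicle and are called Old in the sample descriptions. The labels give no dose, interval, sex or age in years, and each library comes from 1 animal.

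NAD carries electrons in metabolism and is also a substrate that some enzymes break down, so a cell has to remake it steadily. Most cells recycle nicotinamide through NAMPT, and blood cells can also start from nicotinic acid through NAPRT or from tryptophan. The NMNAT enzymes complete the dinucleotide, NADSYN1 finishes the nicotinic acid and tryptophan routes, and NADK turns NAD into NADP. CD38 and BST1 are related surface enzymes that split NAD, PARP1 consumes it at damaged DNA, and SARM1 consumes it in injured nerve fibres.

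Levels are per-million values, which sum to 1000000 in each library, so that a change in one abundant transcript moves all others. A gene-specific divisor was present, as in TPM values, since 1 recovered read was worth 0.0116 units for CD38 and 0.0397 for BST1 in ABPC_EV replicate 1. The globin genes HBB, HBA and HBA1 together took 70.9% to 82.4% of these values in ABPC_EV libraries, 82.3% to 87.6% in FBMSC_EV libraries and 88.2% to 92.7% in PBS libraries. Each result is therefore given on 2 scales, as deposited and after median-ratio scaling, which divides a library by the median ratio of its genes to their mean over libraries. Size factors were 1.52 to 2.52 for ABPC_EV, 0.957 to 1.21 for FBMSC_EV and 0.330 to 0.767 for PBS. Each blood cell marker list had most of its markers in the table and none at 0 in every library. In whole blood, fewer cells of a type and less RNA per cell cannot be told apart.

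NADK had the highest level of the 10 genes in 9 of 9 libraries and SARM1 the lowest. NADK supplied 55.7% of the summed level of the 10 genes in ABPC_EV blood, 61.3% in FBMSC_EV blood and 57.6% in PBS blood. CD38, PARP1 and NAMPT held ranks 2 to 4 in every library, in an order that changed between libraries. In PBS blood the levels of PARP1 (7.15 ± 5.82), NAMPT (6.56 ± 1.42) and CD38 (5.67 ± 3.74) lay within each other's spread (SD, n = 3). NMNAT3 followed at 1.84 ± 0.222, NADSYN1 at 1.35 ± 0.566, BST1 at 0.788 ± 0.212 and NAPRT at 0.669 ± 0.288 per-million units (SD, n = 3). Of these, NADSYN1 overlapped with NMNAT3 and NAPRT, and BST1 with NAPRT, by the values of the libraries. NADSYN1 and BST1 lay within reach of each other's SD. NMNAT1 held rank 9 in 9 of 9 libraries. BST1 moved most in rank, between 5 and 8: by mean level it held rank 5 in ABPC_EV blood, 6 in FBMSC_EV blood and 7 in PBS blood. In ABPC_EV blood BST1 (7.67 ± 4.02), NMNAT3 (5.63 ± 1.72) and NADSYN1 (5.33 ± 2.06) lay within each other's spread, and in FBMSC_EV blood BST1 (2.48 ± 0.299) and NADSYN1 (2.48 ± 0.529) did (SD, n = 3 each).

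**Figure D1:**
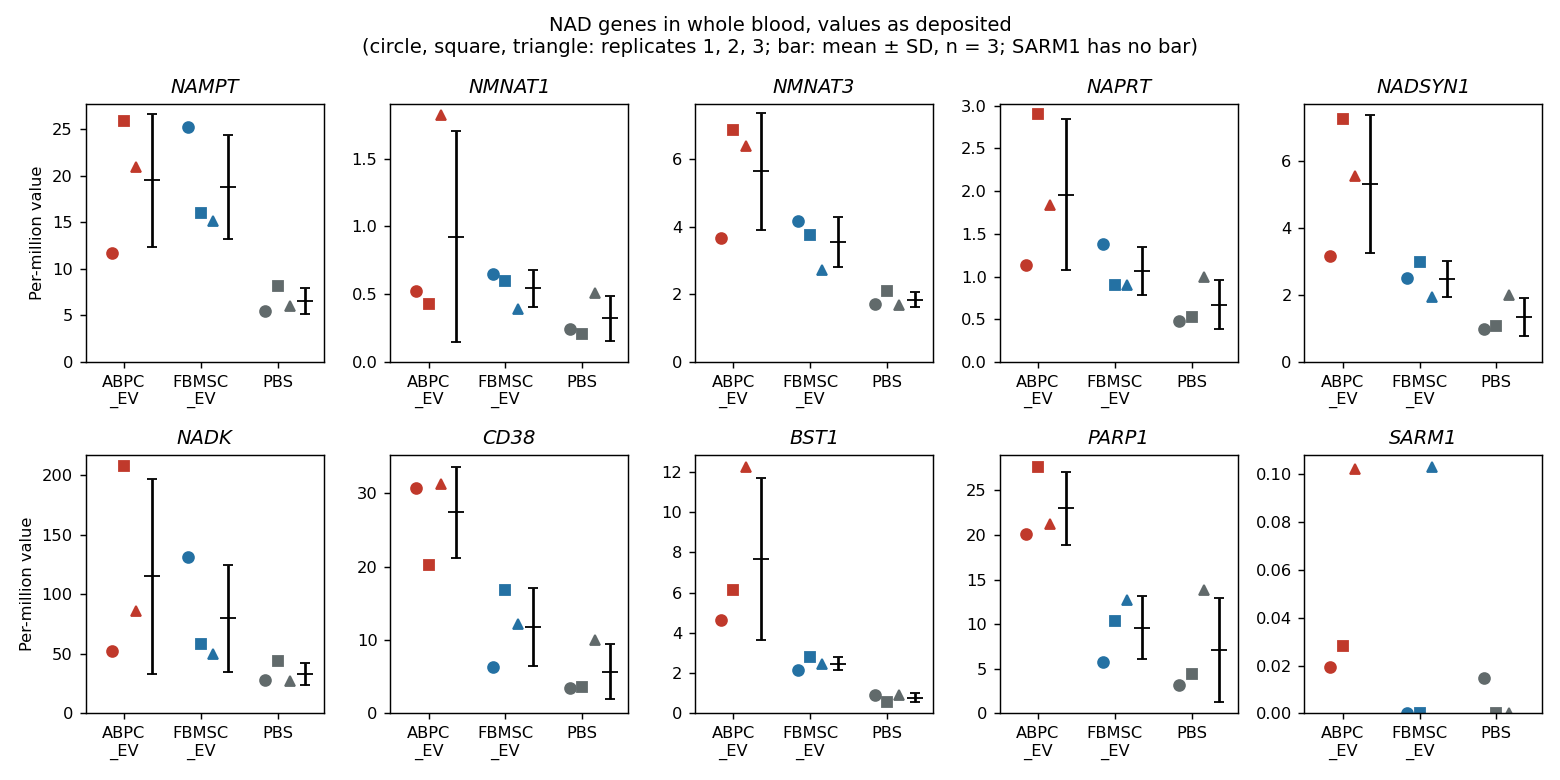
Per-million values as deposited (vertical axis) of the 10 NAD genes in the 9 libraries by group (horizontal axis), with the mean ± SD of each group (n = 3). For all 8 genes that were tested, the 3 ABPC_EV libraries lie above the 3 PBS libraries, as they do for 85.4% of all tested genes. NAPRT and BST1 among them reached the filter only in libraries of animals given vesicles.

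As deposited, the listed values of all 8 tested members rose in ABPC_EV blood against PBS blood, but so did 90.9% of the 10596 genes tested. The test was limma with Benjamini-Hochberg adjustment over all tested genes, at a threshold of 0.05. The median log2 fold change was 1.48 for the 8 members and 1.41 for all tested genes. After scaling, 0 of 8 members passed, as did 0% of all genes in either direction (limma; 1 of 8 members and 1080 genes at an unadjusted p under 0.05). The scaled groups did not overlap for 1 of 8 members, BST1, which was higher, beside 6.45% of all tested genes higher and 7.51% lower. The scaled median was -0.16 for the members and 0.00 for all genes, and 2 of 8 members had a positive change. NAPRT reached the filter of 1 per-million units only in libraries of animals given vesicles, and BST1 likewise, so that neither could enter the test without being higher there. NMNAT1 and SARM1 did not pass the filter.

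The entry enzyme of nicotinamide recycling, NAMPT, was listed at 11.7, 25.9 and 20.9 per-million units in ABPC_EV libraries, at 25.2, 15.95 and 15.2 in FBMSC_EV libraries and at 5.51, 8.17 and 5.996 in PBS libraries. Both vesicle groups lay wholly above PBS on this scale, and they overlapped with each other. Recovered reads behind these values numbered 1000 to 1496, 1400 to 2230 and 554 to 967, in the order ABPC_EV, FBMSC_EV and PBS. The log2 fold change of ABPC_EV against PBS was 1.39 (SE 0.41, limma adjusted p = 0.00318), and that of FBMSC_EV against PBS was 1.37 (SE 0.41, limma adjusted p = 0.0876).

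After scaling, NAMPT stood at 7.71, 11.9 and 8.30 in ABPC_EV libraries, 25.6, 13.2 and 15.9 in FBMSC_EV libraries and 16.7, 17.4 and 7.82 in PBS libraries. The ABPC_EV libraries all lay below the FBMSC_EV libraries, which was the case for 6.8% of all tested genes, and PBS overlapped with both. The scaled log2 difference of ABPC_EV from FBMSC_EV was -0.87 (95% interval -1.63 to -0.10), which missed the threshold (limma adjusted p = 0.923, unadjusted p = 0.0303). Against PBS the scaled log2 changes were -0.48 for ABPC_EV (95% interval -1.25 to 0.28) and 0.38 for FBMSC_EV (-0.38 to 1.15). NAMPT thus changed sign between the scales in ABPC_EV against PBS, and also in ABPC_EV against FBMSC_EV, where it was 0.02 as deposited.

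**Figure D2:**
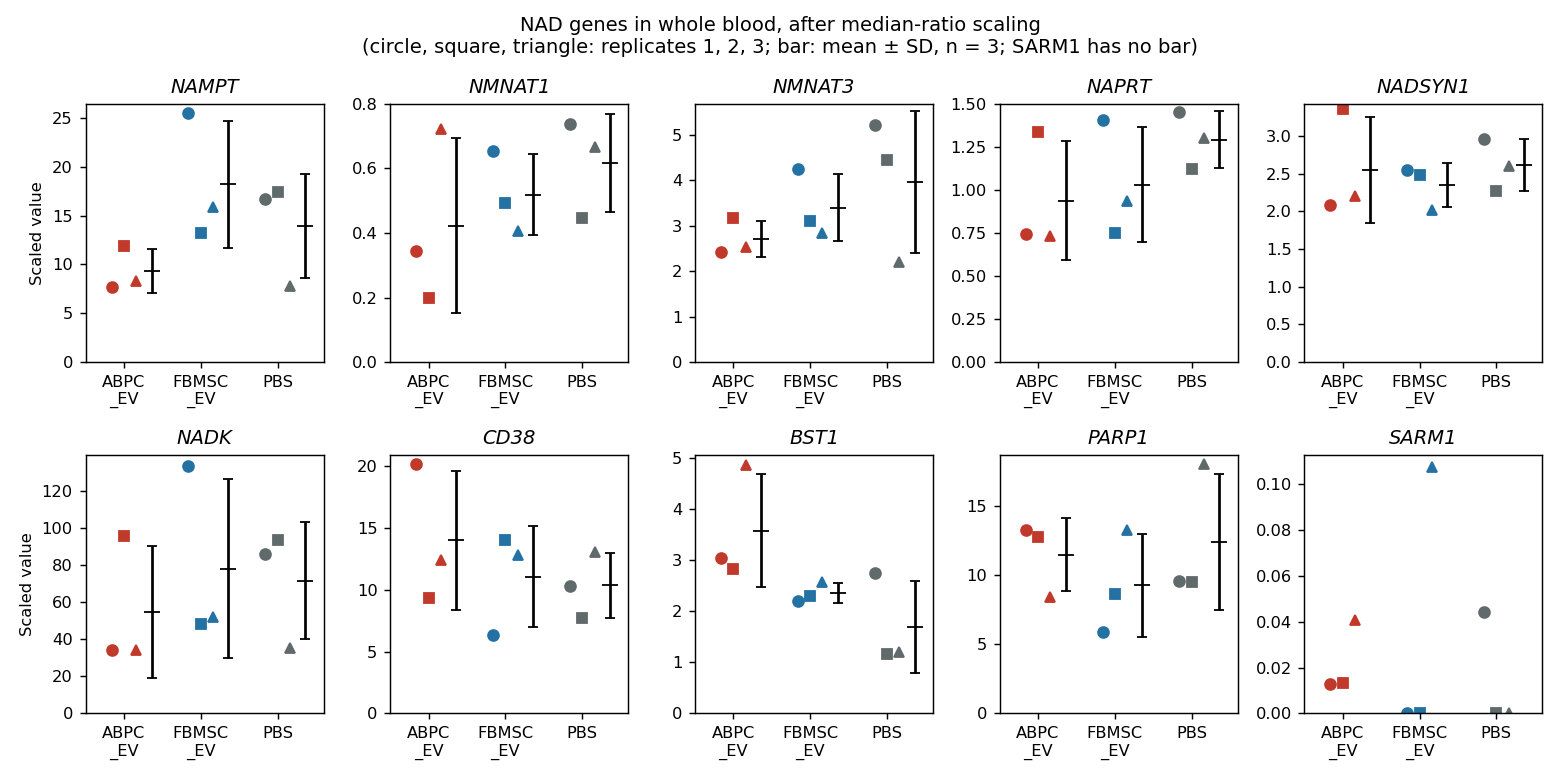
Median-ratio scaled values (vertical axis) of the same 10 genes by group, drawn as in the plot of deposited values. BST1 is the gene for which all ABPC_EV libraries, from 2.83 to 4.86, lie above all PBS libraries, from 1.16 to 2.74. So do those of 6.45% of all tested genes, and BST1 reached the filter only in libraries of animals given vesicles.

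NMNAT3, the mitochondrial enzyme that joins the dinucleotide and on which red cells depend in mice, was listed at 3.67, 6.85 and 6.38 per-million units in ABPC_EV libraries. It stood at 4.18, 3.74 and 2.72 in FBMSC_EV libraries and at 1.72, 2.09 and 1.69 in PBS libraries. Both vesicle groups lay above PBS as deposited, with log2 changes of 1.19 for ABPC_EV (limma adjusted p = 0.00232) and 0.67 for FBMSC_EV (limma adjusted p = 0.119). Scaled, the groups overlapped, at 2.41 to 3.16 in ABPC_EV, 2.84 to 4.24 in FBMSC_EV and 2.21 to 5.21 in PBS libraries. The scaled change of ABPC_EV against PBS was -0.37 (95% interval -0.93 to 0.19, limma adjusted p = 0.672). NMNAT1, the nuclear enzyme of the same step, rested on few reads: 10 to 47 in ABPC_EV, 15 to 23 in FBMSC_EV and 10 to 19 in PBS libraries. Its values of 0.430 to 1.82, 0.390 to 0.646 and 0.210 to 0.511 per-million units, in the same order, overlapped between all groups.

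Of the nicotinic acid route, NAPRT makes the first intermediate and NADSYN1 the last amidation. NAPRT was listed at 1.13, 2.90 and 1.84 per-million units in ABPC_EV libraries, 1.38, 0.906 and 0.898 in FBMSC_EV libraries and 0.480, 0.526 and 0.99997 in PBS libraries. These are the values of 45 to 78, 37 to 57 and 25 to 43 reads. NAPRT had the smallest called change of the 8 members in ABPC_EV against PBS, 0.80 on the log2 scale (SE 0.30, limma adjusted p = 0.0155). It reached the filter only in libraries of animals given vesicles, so being higher there than in PBS blood was a condition of being tested. That call ended without ABPC_EV replicate 2 (limma adjusted p = 0.115), PBS replicate 1 (0.0574) or PBS replicate 2 (0.0576). Scaled NAPRT values were 0.732 to 1.34 in ABPC_EV, 0.751 to 1.40 in FBMSC_EV and 1.12 to 1.45 in PBS libraries, with overlap between all groups. The scaled change of ABPC_EV against PBS was -0.25 (SE 0.19, limma adjusted p = 0.694), opposite in sign to the change as deposited.

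NADSYN1 stood at 3.16, 7.26 and 5.55 per-million units in ABPC_EV libraries, 2.51, 2.99 and 1.93 in FBMSC_EV libraries and 0.976, 1.07 and 1.999 in PBS libraries. The ABPC_EV libraries lay above all others as deposited, by log2 changes of 1.40 against PBS (limma adjusted p = 0.000828) and 0.82 against FBMSC_EV (limma adjusted p = 0.0782). After scaling it was the steadiest of the tested members, with a highest value 1.66 times its lowest over the 9 libraries. Its scaled log2 changes were -0.04 for ABPC_EV against PBS (95% interval -0.44 to 0.36), -0.11 for FBMSC_EV against PBS (-0.50 to 0.29) and 0.07 for ABPC_EV against FBMSC_EV (-0.33 to 0.46). The first of these turned to 0.032 under upper-quartile scaling.

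NADK, the kinase that makes NADP, was listed at 52.0, 207 and 85.8 per-million units in ABPC_EV libraries, 131, 58.3 and 49.7 in FBMSC_EV libraries and 28.3, 44.0 and 27.0 in PBS libraries. One library of each vesicle group, ABPC_EV replicate 2 and FBMSC_EV replicate 1, stood well above the other two of its group. The log2 change against PBS was 1.57 for ABPC_EV (SE 0.51, limma adjusted p = 0.00628) and 1.14 for FBMSC_EV (SE 0.51, limma adjusted p = 0.0998). After scaling the values were 34.2, 95.7 and 34.1 in ABPC_EV, 133, 48.3 and 52.0 in FBMSC_EV and 85.7, 93.6 and 35.2 in PBS libraries. No pair of groups was apart, and the scaled change of ABPC_EV against PBS was -0.44 with a wide 95% interval of -1.69 to 0.81.

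CD38, a surface enzyme of lymphocytes and plasma cells that splits NAD, was listed at 30.7, 20.2 and 31.3 per-million units in ABPC_EV libraries. It stood at 6.28, 16.9 and 12.2 in FBMSC_EV libraries and at 3.40, 3.62 and 9.98 in PBS libraries. The ABPC_EV libraries lay above all others, by log2 changes of 2.20 against PBS (SE 0.44, limma adjusted p = 0.000425) and 1.22 against FBMSC_EV (SE 0.44, limma adjusted p = 0.0737). Scaled, CD38 ranged from 9.32 to 20.2 in ABPC_EV, 6.38 to 14.0 in FBMSC_EV and 7.70 to 13.0 in PBS libraries, with overlap between all groups. Its scaled change of ABPC_EV against PBS was 0.36 (95% interval -0.42 to 1.15, limma adjusted p = 0.764). The summed scaled level of 6 of 6 plasma cell markers was 39.2 to 46.8 in ABPC_EV, 33.7 to 38.9 in FBMSC_EV and 42.8 to 80.4 in PBS libraries. For 7 of 8 T cell markers it was 66.3 to 208 in ABPC_EV, 56.05 to 117 in FBMSC_EV and 73.9 to 94.2 in PBS libraries, and for 7 of 7 NK and cytotoxic markers it was 226 to 425, 248 to 633 and 122 to 358 in the same order. Over the 9 libraries, scaled CD38 had a Pearson r of -0.13 with the plasma cell, 0.14 with the T cell and 0.23 with the NK and cytotoxic markers. Adjusted p-values by exact permutation were 0.875, 0.875 and 0.816. With the B cell markers the r of CD38 was 0.31 (exact permutation adjusted p = 0.788). Which cells the CD38 values came from was not tested.

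BST1, the relative of CD38 on myeloid cells, showed the widest deposited range of the tested members, with a highest value 22.5 times its lowest. It was listed at 4.64, 6.14 and 12.2 per-million units in ABPC_EV libraries, 2.18, 2.78 and 2.47 in FBMSC_EV libraries and 0.906, 0.543 and 0.916 in PBS libraries. The 3 groups did not overlap on this scale. The reads behind them numbered 105 to 232, 57 to 72 and 19 to 30, so that the PBS values were the least exact. Log2 changes were 2.19 for ABPC_EV against PBS (SE 0.34, limma adjusted p = 0.000417), 0.96 for FBMSC_EV against PBS (SE 0.34, limma adjusted p = 0.0909) and 1.23 for ABPC_EV against FBMSC_EV (SE 0.34, limma adjusted p = 0.0737).

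After scaling, BST1 stood at 3.05, 2.83 and 4.86 in ABPC_EV libraries, 2.21, 2.30 and 2.58 in FBMSC_EV libraries and 2.74, 1.16 and 1.19 in PBS libraries. The ABPC_EV libraries stayed above all FBMSC_EV and all PBS libraries, a pattern of 4.23% and 6.45% of tested genes, and FBMSC_EV overlapped with PBS. BST1 reached the filter only in libraries of animals given vesicles, so being higher there than in PBS blood was a condition of being tested. Its change against PBS, the p and the groups standing apart are therefore descriptive on both scales. The scaled log2 change of ABPC_EV against PBS was 0.79 (95% interval 0.24 to 1.34, unadjusted p = 0.0100), which missed the threshold over all genes (limma adjusted p = 0.281). By limma-voom on recovered reads, an alternative added after the data were seen, it was 1.26 (95% interval 0.40 to 2.12, adjusted p = 0.313). With each library left out in turn it ranged from 0.57 to 1.09. The summed scaled level of 10 of 10 neutrophil markers was 388 to 1082 in ABPC_EV, 579 to 3160 in FBMSC_EV and 490 to 2273 in PBS libraries. That of 7 of 8 monocyte markers was 311 to 351, 306 to 967 and 280.3 to 445 in the same order, and that of 6 of 8 eosinophil and basophil markers was 15.02 to 21.8, 12.6 to 15.8 and 5.29 to 22.1. No marker of these lists was at 0 in every library. Over the 9 libraries, scaled BST1 had a Pearson r of -0.39 with the neutrophil and -0.06 with the monocyte markers. With the eosinophil and basophil markers it was 0.77, and 0.098 without the 2 libraries farthest from the median of that marker sum. Adjusted p-values by exact permutation were 0.718, 0.955 and 0.134 in this order. Of the other lists, the largest r were -0.62 with the erythroid, 0.54 with the T cell and -0.54 with the B cell markers. Their exact permutation adjusted p-values were 0.366, 0.472 and 0.472. Without the 2 farthest libraries of each list these r were -0.84, 0.10 and -0.43. Over deviations from the group means the erythroid r was 0.36. Which cells the BST1 values came from was not tested. BST1 and CD38 are close neighbours, with 2 annotated genes between them by RefSeq (assembly T2T-MMU8v2.0, not the build of the data).

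PARP1 was listed at 20.1, 27.7 and 21.2 per-million units in ABPC_EV libraries, 5.79, 10.4 and 12.7 in FBMSC_EV libraries and 3.16, 4.44 and 13.8 in PBS libraries. The ABPC_EV libraries lay above all others as deposited, while PBS replicate 3 exceeded every FBMSC_EV library. The log2 change was 1.77 for ABPC_EV against PBS (SE 0.45, limma adjusted p = 0.00111) and 1.22 for ABPC_EV against FBMSC_EV (SE 0.45, limma adjusted p = 0.0737). Scaled values of 8.43 to 13.2 in ABPC_EV, 5.88 to 13.3 in FBMSC_EV and 9.46 to 18.0 in PBS libraries overlapped, and the scaled change against PBS was -0.06 (95% interval -0.81 to 0.68).

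SARM1 was near the limit of detection. It was listed at 0.0193, 0.0284 and 0.102 per-million units in ABPC_EV libraries, at 0, 0 and 0.103 in FBMSC_EV libraries and at 0.0147, 0 and 0 in PBS libraries. The values above 0 rest on 1, 1 and 4 reads in ABPC_EV, 6 reads in FBMSC_EV and 1 read in PBS libraries, so no difference was detectable at this depth.

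**Figure D3:**
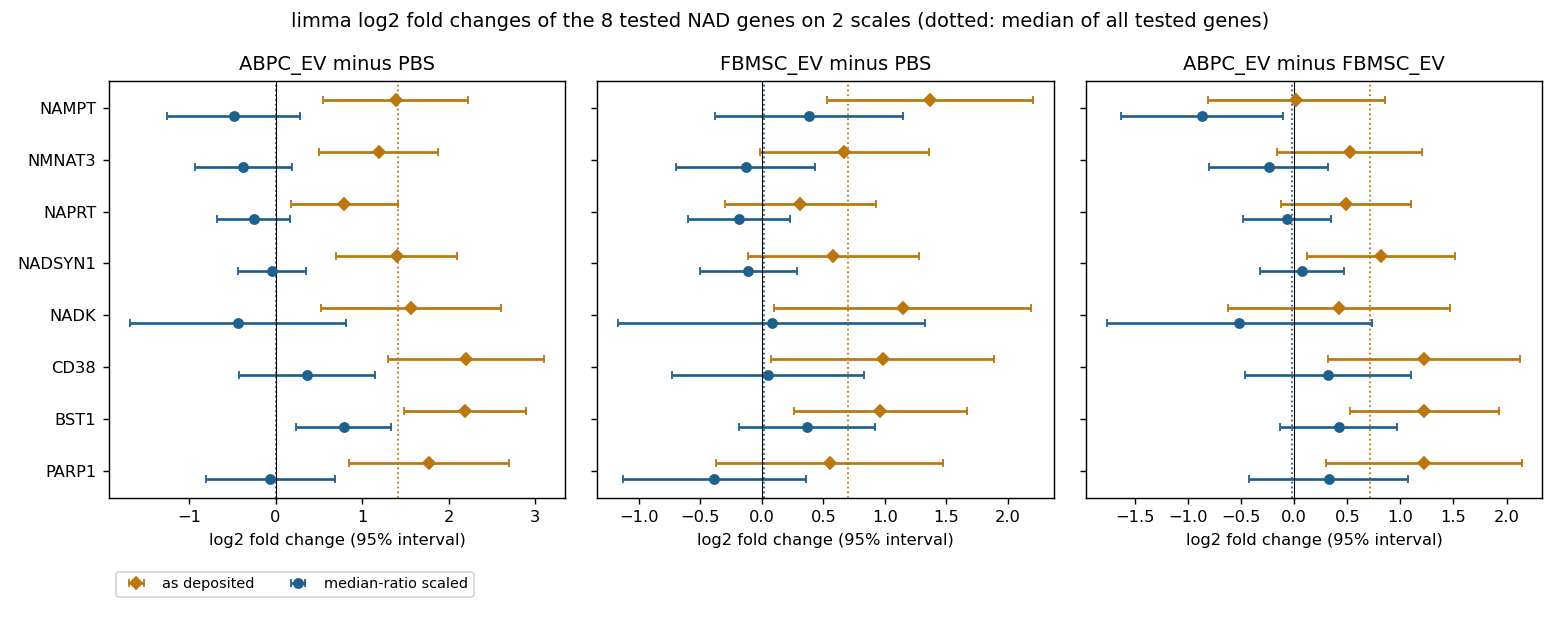
Log2 fold changes (horizontal axis) of the 8 tested members with 95% intervals from limma, as deposited (diamonds) and after median-ratio scaling (circles), for ABPC_EV minus PBS, FBMSC_EV minus PBS and ABPC_EV minus FBMSC_EV. Dotted lines mark the median of all tested genes on each scale, which for ABPC_EV minus PBS is 1.41 as deposited and 0.00 scaled.

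In FBMSC_EV blood against PBS blood, 0 of 8 tested members passed as deposited, against 0.255% of all tested genes higher and 0.00944% lower (limma; 4 members and 4637 of 10596 genes at an unadjusted p under 0.05). The libraries did not overlap for 4 of 8 members, NAMPT, NMNAT3, NADK and BST1, all higher, as for 50.9% of all tested genes, with 0.0849% lower throughout. BST1 and NAPRT reached the filter only in libraries of animals given vesicles, so BST1 standing apart is descriptive here. After scaling 0 of 8 passed (limma; 0 members and 512 genes at an unadjusted p under 0.05). No member had groups apart on that scale, on which 4.96% of all tested genes were higher throughout and 4.71% lower. Without PBS replicate 3, 4 members passed as deposited, beside 4557 of 10524 genes higher in that fit. A fit of these 2 groups alone called 4 of 7 members, beside 2713 of 8623 genes.

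ABPC_EV blood against FBMSC_EV blood gave 0 of 8 members past the threshold as deposited, against 0.585% of all tested genes higher and 0.0566% lower (limma; 4 members and 5120 of 10596 genes at an unadjusted p under 0.05). The 4 were NADSYN1, CD38, BST1 and PARP1, whose ABPC_EV libraries all lay above the FBMSC_EV libraries, as for 50.5% of all tested genes, with 0.17% lower throughout. NAMPT had a log2 difference of 0.02 (95% interval -0.82 to 0.86), beside a median of 0.71 over all tested genes. After scaling 0 of 8 passed (limma; 1 member, NAMPT, and 568 genes at an unadjusted p under 0.05). The comparisons against PBS share the PBS libraries, and each of the 3 comparisons shares a group with the others.

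Ratios of members within a library do not depend on the scaling. NAMPT exceeded NAPRT by 10.3, 8.93 and 11.3 times in ABPC_EV libraries, by 18.2, 17.6 and 16.9 times in FBMSC_EV libraries and by 11.5, 15.5 and 5.997 times in PBS libraries. The ratio averaged 10.2 ± 1.21 in ABPC_EV, 17.6 ± 0.646 in FBMSC_EV and 11.0 ± 4.78 in PBS blood (SD, n = 3 each). All FBMSC_EV libraries were above all ABPC_EV and all PBS libraries, and ABPC_EV and PBS overlapped. The size of the ratio depended on the low NAPRT values. With 0.5 added to both genes the means were 8.13 in ABPC_EV, 12.2 in FBMSC_EV and 6.30 in PBS blood, with the same groups apart. The counting intervals overlap, since exact 95% binomial intervals reached up to 15.1 in ABPC_EV libraries and down to 12.4 in FBMSC_EV libraries. This ratio was compared as a description, with no test.

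CD38 exceeded BST1 by 2.55 to 6.62 times in ABPC_EV libraries, 2.89 to 6.07 times in FBMSC_EV libraries and 3.75 to 10.9 times in PBS libraries, with overlap between all groups. NMNAT1 reached 0.0628 to 0.286 of the NMNAT3 level in ABPC_EV, 0.143 to 0.159 in FBMSC_EV and 0.1005 to 0.302 in PBS libraries, again with overlap. NADK to NAMPT, PARP1 to CD38 and NAMPT to CD38 overlapped likewise between all groups, so that 1 of the 6 ratios computed set groups apart. The share of other gene pairs whose ratio does so was not computed, so this count is a description only.

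**Figure D4:**
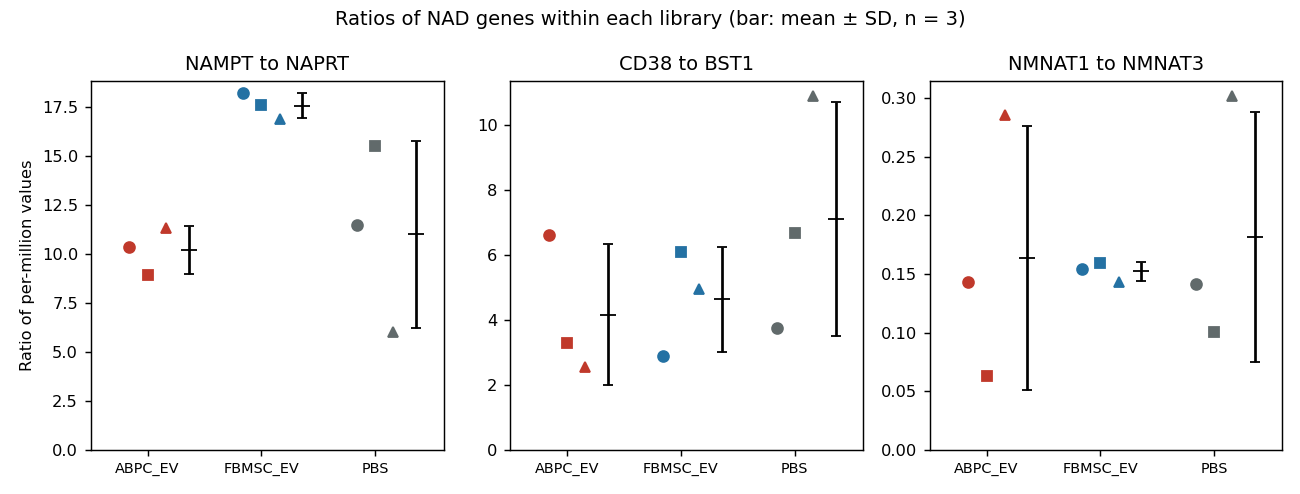
Ratios of per-million values within each library (vertical axis) by group (horizontal axis), with the mean ± SD (n = 3). The NAMPT to NAPRT ratio is 16.9 to 18.2 in the FBMSC_EV libraries, above the 8.93 to 11.3 of the ABPC_EV libraries and the 5.997 to 15.5 of the PBS libraries.

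After scaling, NADK and NAMPT were both high in FBMSC_EV replicate 1, PBS replicate 1 and PBS replicate 2 and both low in ABPC_EV replicates 1 and 3 and PBS replicate 3. They parted in ABPC_EV replicate 2, where NADK was high at 95.7 and NAMPT stood at 11.9. Over the 9 libraries, NADK and NAMPT had a Pearson r of 0.87 and NADK and NMNAT3 one of 0.84 on the scaled log2 values. NADK and CD38 ran opposite, at -0.88. These values describe 9 libraries that share their scaling, and 13 of the 28 pairs of members were positive.

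The members were also set against 9 blood cell marker lists over the libraries, which gave 72 relations. Scaled NADK followed the summed level of the neutrophil markers, with a Pearson r of 0.90 (exact permutation p = 0.000309, adjusted p = 0.0222) and a Spearman rho of 0.90 (exact permutation p = 0.00203, adjusted p = 0.146). Without the 2 libraries farthest from the median of the marker sum, r was 0.84, and over deviations from the group means it was 0.89. Of all tested genes, 1.97% had an r with these markers at least as high. With the markers averaged on the log2 scale, the adjusted p was 0.0522. The adjusted p also missed the threshold without FBMSC_EV replicate 1 (0.174), FBMSC_EV replicate 3 (0.0714) or PBS replicate 3 (0.182), with r from 0.85 to 0.93 over all left-out libraries.

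NAMPT had an r of 0.85 with the same list (exact permutation p = 0.00327, adjusted p = 0.0784) and a rho of 0.82 (exact permutation p = 0.0108, adjusted p = 0.155). Without the 2 farthest libraries its r was 0.68. CD38 had an r of -0.78 with the neutrophil markers (exact permutation p = 0.0128, adjusted p = 0.121) and a rho of -0.75 (exact permutation p = 0.0255, adjusted p = 0.262). Its r dropped to -0.36 without the 2 farthest libraries, so that relation rests on them. The monocyte list had an r of 0.76 with NAMPT, 0.69 with NADK and -0.80 with PARP1. NAPRT had an r of -0.81 with the NK and cytotoxic list. None of these passed (exact permutation p = 0.00877, 0.0134, 0.00629 and 0.00813, adjusted p = 0.105, 0.121, 0.105 and 0.105). Without the 2 farthest libraries these r were 0.44, 0.35, -0.66 and -0.83.

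PARP1 followed the B cell markers, 7 of 7 of them in the table, with an r of 0.88 (exact permutation p = 0.00117, adjusted p = 0.0423) and a rho of 0.87 (exact permutation p = 0.00451, adjusted p = 0.155). The r was 0.82 without the 2 farthest libraries and 0.91 over deviations from the group means, and 0.5% of tested genes had an r at least as high. Left-out libraries gave r from 0.84 to 0.94. The adjusted p missed the threshold without ABPC_EV replicate 1 (0.0661) or 2 (0.121), FBMSC_EV replicate 1 (0.174) or 3 (0.0714), or PBS replicate 3 (0.191). The summed B cell level was 78.2 to 225 in ABPC_EV, 76.4 to 199.6 in FBMSC_EV and 165 to 319 in PBS libraries. PBS replicate 3 had both the highest PARP1 and the highest B cell level. The other lists were platelets (6 of 7 markers), at 50.8 to 370.1 in ABPC_EV, 96.3 to 226 in FBMSC_EV and 157 to 194 in PBS libraries, and the erythroid list (30 of 32). The summed scaled erythroid level was 300376 to 545017 in ABPC_EV, 688766 to 919468 in FBMSC_EV and 1156950 to 2819130 in PBS libraries. Scaled NMNAT3 had a Pearson r of 0.64 with it (exact permutation adjusted p = 0.366), and 0.32 without the 2 farthest libraries. Pearson r passed the threshold in 2 of the 72 relations and Spearman rho in 0.

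**Figure D5:**
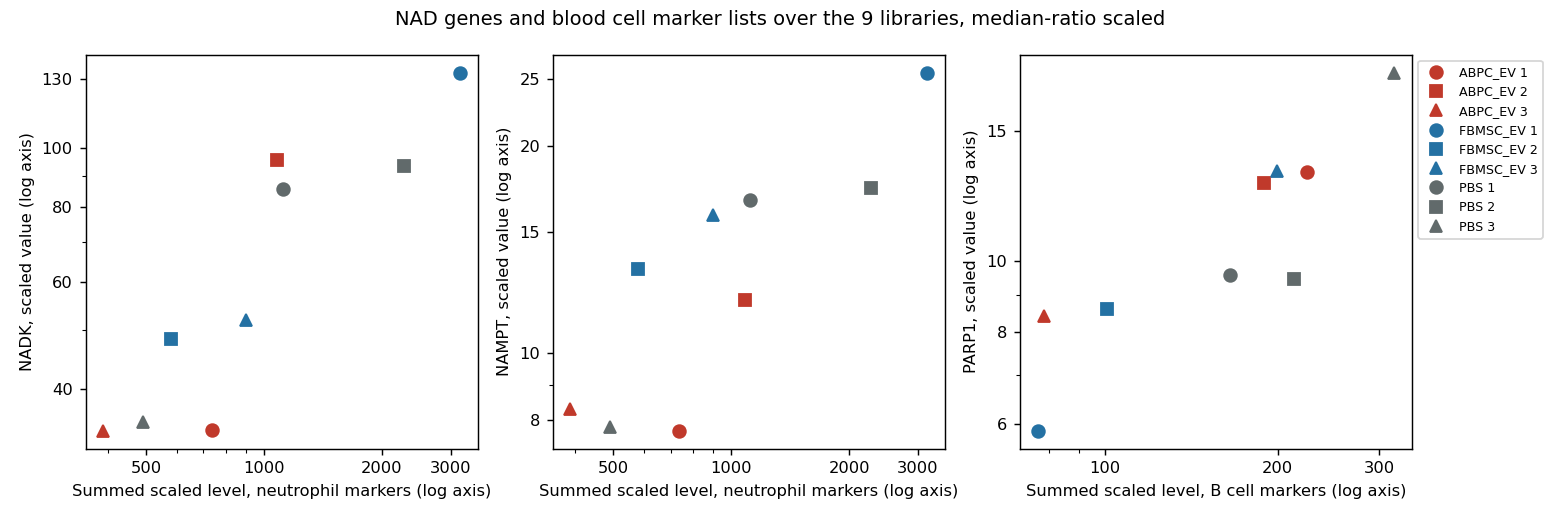
Scaled NADK and NAMPT against the summed scaled level of the neutrophil markers, and PARP1 against that of the B cell markers, in the 9 libraries (log axes; colours are groups, shapes are replicates). FBMSC_EV replicate 1 is highest for NADK, at 133, and NAMPT, at 25.6, and PBS replicate 3 is highest for PARP1, at 18.0.

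Among 9217 other tested genes with a symbol, those with the highest Pearson r over the 9 libraries were RALB (0.99) and ZDHHC18 (0.99) for NADK, and TNFAIP6 (0.97) and GOLPH3 (0.97) for NAMPT. For PARP1 they were PNOC (0.98) and TERF2 (0.97), for CD38 MDN1 (0.96) and TMEM273 (0.95), and for BST1 KANSL1 (0.96) and METTL7A (0.94). For NMNAT3 they were ABCB6 (0.96) and ZFAND2B (0.96), for NAPRT TEX261 (0.93) and GNA11 (0.93), and for NADSYN1 ARMC7 (0.94) and SCAMP2 (0.93). NADK had 430 genes with an r of at least 0.9, and NADSYN1 and BST1 had 7 each.

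Of 50 further genes of NAD metabolism, 44 were in the table and 34 were tested. As deposited 30 of 34 rose in ABPC_EV blood against PBS blood, 88.2% beside the 90.9% of all tested genes, and 0 fell. They were 15 of 15 other PARP enzymes, 5 of 5 sirtuins, 4 of 6 genes of the tryptophan route, 3 of 4 of the riboside, nucleotide and methylation steps and 3 of 4 of the NADP, transport and redox list. In FBMSC_EV blood against PBS blood 1 of 34 passed, beside 0.255% of all tested genes higher. It was PARP9, an interferon-inducible member of the PARP family, with a log2 change of 1.68 (limma adjusted p = 0.0317). PARP9 is named here after its value was seen. ABPC_EV against FBMSC_EV called 0 of 34 as deposited (limma; 10 of 34, beside 5120 of all 10596 genes, at an unadjusted p under 0.05).

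After scaling, 0 of 34 passed by limma in each of the 3 comparisons, as did 0 of the 10596 tested genes. At an unadjusted limma p under 0.05 there were 3 in ABPC_EV against PBS, 3 in FBMSC_EV against PBS and 5 in ABPC_EV against FBMSC_EV. Beside them stood 1080, 512 and 568 of the 10596 genes, in the same order. The list medians for ABPC_EV against PBS were -0.36 for the tryptophan route, with 5 of 6 genes negative, 0.12 for other PARP enzymes, 0.04 for the riboside, nucleotide and methylation steps, -0.04 for sirtuins and -0.08 for NADP, transport and redox. The median over all tested genes was 0.00. The following genes had the smallest p of their list. IDO1, which opens the tryptophan route, stood at a scaled 65.9 ± 18.2 in ABPC_EV, 152 ± 53.4 in FBMSC_EV and 138 ± 40.6 in PBS blood (SD, n = 3 each). All ABPC_EV libraries lay below all others on this scale, as 7.51% of all tested genes did against PBS and 6.8% against FBMSC_EV. Its scaled log2 change of ABPC_EV against PBS was -1.05 (95% interval -1.92 to -0.19, limma adjusted p = 0.372), and as deposited it was 0.97 (limma adjusted p = 0.0365).

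PNP, which releases nicotinamide from its riboside as well as splitting purine nucleosides, stood at a scaled 6.74 ± 1.99, 12.7 ± 3.92 and 16.5 ± 5.58 in ABPC_EV, FBMSC_EV and PBS blood (SD, n = 3 each). All ABPC_EV libraries again lay below all others, beside the same 7.51% and 6.8% of all tested genes. The scaled change against PBS was -1.15 (95% interval -1.89 to -0.42, limma adjusted p = 0.245). SIRT6, a nuclear sirtuin, had a scaled change of -0.45 (limma adjusted p = 0.486), TRPM2, a channel opened by ADP-ribose, -0.43 (limma adjusted p = 0.691) and PARP6 0.30 (limma adjusted p = 0.613). As deposited, the log2 changes of ABPC_EV against PBS were 0.70 for PNP (limma adjusted p = 0.0817) and 1.04 for SIRT6 (limma adjusted p = 0.0061). For TRPM2 the deposited change was 0.51 (limma adjusted p = 0.103) and for PARP6 1.77 (limma adjusted p = 0.000417). PNP, SIRT6 and TRPM2 thus changed sign between the scales.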

How the data were processed

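The deposited table holds log2 values, 1 column per animal: as the lowest value of -1 shows, the authors took the log2 of a per-million value plus 0.5. Per the labels' protocols, NEBNext Ultra RNA libraries of total RNA were sequenced as paired ends, and per the submitters' processing notes the build was Mmul_10. Aligner and counter: not given in the sources used here. All 9 columns were mapped, with 0 left over.

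Values were returned to the per-million scale. limma 3.58.1 with a trend (R 4.3.3) was fitted to log2(value + 1) of genes reaching a per-million value of 1 in 3 or more samples. The fit held the 9 samples together with group alone in the model, as deposited and after median-ratio scaling (13350 genes above 0 everywhere). Fold changes on this scale understate the change of low genes. The script was tested on simulated data. Alternatives were other pseudocounts (0.5, 0.1), no filter, the 2 groups alone, no trend, a replicate block, each library left out, upper-quartile scaling and the erythroid list taken out.

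Whole reads were recovered by a search for 1 divisor per gene, with a tolerance of 0.001 reads: 12607 of the 13350 genes above 0 in all 9 libraries came out whole, and 0 of 1000 such genes with perturbed values did. Over the 21551 genes above 0 in at least 2 libraries, 95.7% came out whole, against 69 of 1000 with perturbed values. The recovered reads sum to 2046270 to 6694242 per library without 925 genes that did not come out whole, HBB and HBA among them, so the total depth is not known. A multiple of the divisor cannot be told apart. limma-voom used these reads (at least 10 in 3 samples, 12619 genes) and called 6 genes, all lower in ABPC_EV than in PBS. Intervals on ratios are exact Clopper-Pearson intervals for counting error only.

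Members and lists were chosen with earlier results of these data known. All members are named, with the smallest-p gene of each pathway list and the 2 genes most alike to each tested member; others are marked. Relations used exact permutations of the 9 libraries (scipy 1.17.1). Gene names are the table's own: 10 of 10 members are in the RefSeq table and 9 of 10 in the table of gene IDs.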

Additional observations from a re-analysis of the deposited data

How the results depend on the processing

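Of the counts of members past the threshold, that of ABPC_EV against PBS as deposited was 8 in each alternative with the values as deposited. It was 7 to 8 with each library left out. Beside it stood 9588 of 10596 genes higher with a pseudocount of 0.1 and 9676 of 10596 with a replicate block. Without the filter it was 8 of 10 members, beside 11685 of 24371 genes. It was 7 without ABPC_EV replicate 2 (8750 of 9979 genes higher), PBS replicate 1 (8730 of 10581) or PBS replicate 2 (9317 of 10572). NAPRT and BST1 are among the 8 and reached the filter only in libraries of animals given vesicles. The count was 0 of 9 once the erythroid genes were removed and the remainder rescaled, beside 16 of 15341 genes higher and 1 lower. FBMSC_EV against PBS as deposited gave 4 with the 2 groups alone (2713 of 8623 genes higher) and 0 to 4 with each library left out (4 without PBS replicate 3, with 4557 of 10524 genes higher). ABPC_EV against FBMSC_EV gave 0 to 3 with each library left out: 3 without ABPC_EV replicate 1 (4590 of 10062 genes higher), 1 without ABPC_EV replicate 2 (399 of 9979) and 3 without PBS replicate 3 (2693 of 10524). With a replicate block it gave 4, and 3389 genes higher in place of 62. Same-numbered libraries had correlations of deviations from -0.25 to 0.28, so the numbers were not taken to pair the animals. After scaling the counts were 0 in every alternative run, with limma-voom on recovered reads included (0 of 9 members in each comparison, of which 1, 0 and 1 had an unadjusted p under 0.05). The most genes called in a scaled fit were 9 higher and 163 lower of 10524, in ABPC_EV against PBS without PBS replicate 3. In that fit 3 members had an unadjusted limma p under 0.05, beside 1477 genes. By limma-voom on recovered reads, added after the data were seen, the median of the members in ABPC_EV against PBS was -0.40 in place of -0.16.

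Some log2 changes turned sign. With the erythroid list taken out these were ABPC_EV against FBMSC_EV for NADK (-0.17) and NAMPT (-0.57) and FBMSC_EV against PBS for PARP1 (-0.012). With upper-quartile scaling they were ABPC_EV against PBS for NADSYN1 (0.032) and PARP1 (0.029). With each library left out, as deposited, ABPC_EV against FBMSC_EV ranged from -0.12 to 0.87 for NADK and from -0.21 to 0.33 for NAMPT. Scaled, it ranged from -0.086 to 0.16 for NADSYN1 and from -0.20 to 0.062 for NAPRT. Scaled ABPC_EV against PBS ranged from -0.19 to 0.054 for NADSYN1 and from -0.21 to 0.22 for PARP1. Scaled FBMSC_EV against PBS ranged from -0.14 to 0.36 for CD38, -0.39 to 0.34 for NADK and -0.42 to 0.062 for NMNAT3. None of these changes was called in the fit reported. The cause was not tested beyond what each alternative removes.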
